A study of Mus musculus with 26 samples.

Results

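The ETS genes encode transcription factors that share a winged helix-turn-helix DNA-binding domain. The set described here held 10 of them, taken by mouse symbol from the 54146 genes of the count files, namely Spi1 (which encodes PU.1), Spib, Spic, Erg, Fli1, Ets1, Ets2, Etv6, Elf1 and Gabpa. All 10 symbols matched an identifier, and the genes were taken by name, with no threshold on their values. Poly-A RNA was sequenced from mouse leukemia cultures derived from lineage-negative bone marrow that had been transduced with retroviruses and held in culture for 8 to 12 weeks, with puromycin selection for 3 to 6 weeks, in medium with IL-3 and SCF. Both arms carried MLL-AF9 (MA9), a fusion oncogene. The MA9+SETDB1 arm (3 libraries) also carried a SETDB1 retrovirus, and the MA9+EV arm (3 libraries) carried the empty MSCVpuro vector (EV) in its place. The labels call the libraries biological replicates and do not say whether they came from separate transductions or animals. SETDB1 is a methyltransferase that places methyl groups on lysine 9 of histone H3, and the comparison asked how RNA levels differed in the cells made with it.

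ETS proteins bind DNA around a GGAA core, and members with nearly the same core preference differ in flanking bases and in partner proteins. PU.1 is required for monocytes, neutrophils and B cells. Its protein and GATA1 bind each other and each can inhibit the other, which is a textbook example of a choice between the myeloid and the erythroid fate. FLI1 and ERG are close relatives that act in blood stem cells, megakaryocytes and endothelium, and GABPA binds DNA as a complex with GABPB1 or GABPB2, at many promoters of housekeeping and mitochondrial genes.

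The libraries held 18070482 to 22561757 gene counts each. Setdb1 itself had 105, 108 and 109 CPM (counts per 1000000 after TMM scaling) in MA9+EV and 474, 604 and 606 CPM in MA9+SETDB1. This was a log2 fold change of 2.39 ± 0.13 (SE) and an adjusted p of 2.42e-05 by edgeR's quasi-likelihood test, in the direction the labels give. The species of the SETDB1 cDNA is not stated, and transcripts of another species could be counted only in part. Over the 12986 genes that passed the filter on low counts, 53.5% were called at an adjusted p below 0.05. Of these calls 51.1% were higher in MA9+SETDB1, or 38.1% when library totals were used with no scaling factors, a setting that moved the median log2 fold change of all genes by -0.23. Replicate 1 stood apart from replicates 2 and 3 in each arm, with a chi-square per degree of freedom of 78.3 to 102 against it, while between replicates 2 and 3 it was 4.3 for MA9+EV and 3.14 for MA9+SETDB1.

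The arms also differed in markers of blood cell types. The 8 neutrophil markers, which are granule and S100 genes such as Elane and Mpo and the receptor gene Csf3r, fell in all 8 cases, from a summed 11750 to 16049 CPM in MA9+EV to 25.8 to 29.5 CPM in MA9+SETDB1. All 9 erythroid markers rose, from a sum of 0.578 to 1.26 CPM to one of 1331 to 1650 CPM, and Slc4a1 and Alas2 had no counts in MA9+EV. Mast cell and basophil markers, led by Prss34 and Fcer1a, rose in 7 of 8 cases, from a sum of 161 to 202 CPM to one of 9904 to 10194 CPM, and the remaining gene, Kit, fell. Granule genes of neutrophils were thus higher in MA9+EV and near 0 in MA9+SETDB1, while those of mast cells and basophils, such as Prss34, went the other way. Among monocyte and macrophage markers 3 rose (Adgre1, Csf1r and Cd68), 3 fell, Mrc1 among them, and 1 did not pass. The sum went from 162 to 418 CPM to 540 to 1480 CPM, and most of the MA9+SETDB1 sum came from Adgre1 alone. Adgre1 was at 11.1, 11.8 and 10.3 CPM in MA9+EV and at 372, 1222 and 1171 CPM in MA9+SETDB1.

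Most markers of lymphoid, plasmacytoid dendritic and endothelial cells were at or near 0. Ms4a1 and Pax5 were at 0 in all 6 libraries, and the 8 B cell markers summed to 3.85 to 5.28 CPM in MA9+EV and 2.74 to 3.69 CPM in MA9+SETDB1, with Igll1 called lower. Of the 8 T and NK cell markers Cd3e, Cd4, Cd8a, Ncr1 and Klrb1c were at 0, with sums of 6.44 to 6.76 and 2.63 to 7.0 CPM. Lck was called lower (adjusted p of 0.0345). That call was lost without MA9+EV replicate 1 (0.0565), 2 (0.0971) or 3 (0.0876), without MA9+SETDB1 replicate 2 (0.102) and with replicates 2 and 3 summed within each arm (0.17). Cd3g, which was not tested, had no counts in MA9+EV and 4, 49 and 45 in MA9+SETDB1. That is at least 41.6-fold higher when MA9+EV is set to the floor of 3 counts over the arm, with replicate 1 far below the others. Siglech, Klk1 and Cd209d were at 0 among the plasmacytoid dendritic cell markers, whose sums of 66.2 to 91.8 and 38.9 to 65.8 CPM came from Bst2 and Tcf4 in MA9+EV and almost wholly from Bst2 in MA9+SETDB1. Tcf4 fell from 44.9 ± 7.12 to 1.59 ± 0.81 CPM (mean ± SD, n = 3, adjusted p of 0.000113). Cdh5, Kdr, Emcn and Cldn5 were at 0 among the endothelial markers, whose sums of 231 to 366 and 131 to 137 CPM came almost wholly from Pecam1, which leukocytes also express and which fell 2.48-fold (adjusted p of 0.00136). The part of cell type makeup in the ETS results was not tested. In such bulk libraries fewer cells of a type and less RNA per cell cannot be told apart.

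Of the 10 ETS factors, 8 passed the filter on low counts. Fli1, Ets2 and Gabpa fell in MA9+SETDB1, and none rose. Spi1, Erg, Ets1, Etv6 and Elf1 did not pass the test, and Spib and Spic had too few counts to be tested. The 3 falls were 37.5% of the 8 tested factors, beside 26.2% of all tested genes called lower and 27.4% called higher. The 3 libraries of MA9+SETDB1 lay wholly below those of MA9+EV for 5 of the 8 (Fli1, Ets1, Ets2, Etv6 and Gabpa), and the arms overlapped for the other 3. Among all tested genes the arms did not overlap for 64.6%, with MA9+SETDB1 lower for 32.5% and higher for 32.1%. The median log2 fold change of the 8 factors was -0.88, beside -0.01 over all tested genes. With both libraries numbered 1 left out, an alternative chosen after seeing the data, 6 factors were called lower and 1, Spi1, higher. Over all genes that fit called 5314 higher and 5285 lower, beside 3554 and 3397 with all 6 libraries. CPM values are not corrected for transcript length, so levels are compared between arms and not between genes.

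**Figure D1:**
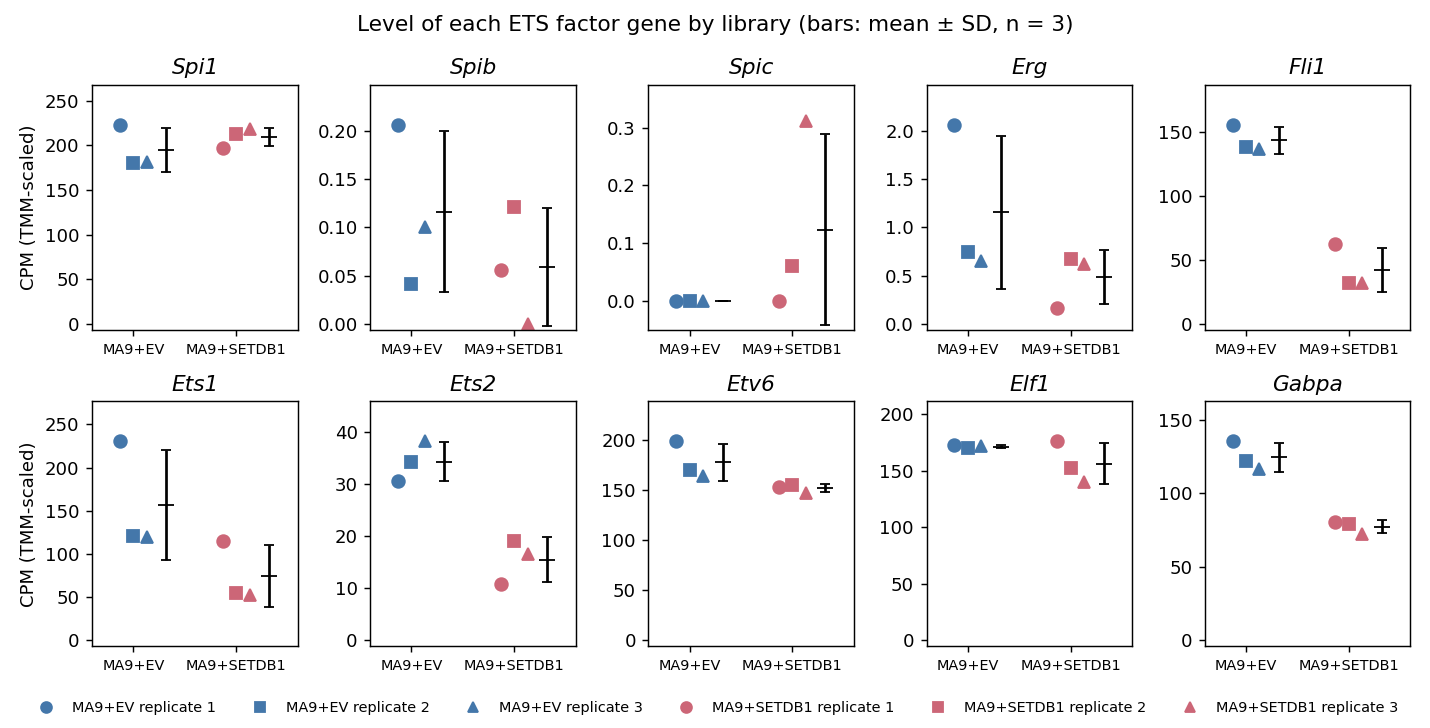
Level of each of the 10 ETS factor genes in CPM (vertical axes, own range per gene) for each library of MA9+EV and MA9+SETDB1, with bars for the mean ± SD of 3 libraries. Fli1, Ets1, Ets2, Etv6 and Gabpa show every MA9+SETDB1 library below every MA9+EV library, and Spi1 shows overlapping arms between 180 and 223 CPM.

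Spi1 (chr2:91082374-91115759, GRCm38), the gene of PU.1, was at 223, 180 and 181 CPM in MA9+EV and at 198, 212 and 218 CPM in MA9+SETDB1. The 3 MA9+SETDB1 libraries lay between the lowest and the highest MA9+EV library. The log2 fold change was 0.10 ± 0.12 (SE), with a 95% interval from -0.18 to 0.39 and an adjusted p of 0.501, so the interval held changes of either sign. Replicate 1 was the highest library of MA9+EV and the lowest of MA9+SETDB1. Without both libraries numbered 1 the log2 fold change was 0.27 with an adjusted p of 2.9e-05. That fit rests on the close replicates 2 and 3 of each arm and called 5314 genes higher and 5285 lower. With replicates 2 and 3 summed within each arm the log2 fold change of Spi1 was 0.03, with an adjusted p of 0.938. With library totals and no scaling factors it was -0.13 and not called.

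Spib and Spic, the closest relatives of Spi1, act in B cells and plasmacytoid dendritic cells (Spi-B) and in red pulp macrophages of the spleen (Spi-C). Spib (chr7:44525995-44532087) had 5, 1 and 2 counts in MA9+EV and 1, 2 and 0 counts in MA9+SETDB1. The arms overlapped, and the normalized ratio of 2.10 (MA9+EV over MA9+SETDB1) had an exact 95% counting interval from 0.503 to 12.3. Spic (chr10:88675269-88683023) had no counts in MA9+EV and 0, 1 and 6 counts in MA9+SETDB1. That is at least 2.97-fold higher when MA9+EV is set to the floor of 3 counts over the arm, but 6 of the 7 counts came from replicate 3.

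FLI1 and ETS1 are encoded side by side on chromosome 9. Fli1 (chr9:32422204-32543432) was at 156, 139 and 137 CPM in MA9+EV and at 62.2, 32.3 and 32.1 CPM in MA9+SETDB1. No library overlapped, and in each arm replicate 1 was the highest. Fli1 fell from 144 ± 10.5 to 42.2 ± 17.3 CPM (mean ± SD, n = 3), 3.40-fold, with a log2 fold change of -1.77 ± 0.27 (SE), a 95% interval from -2.42 to -1.12 and an adjusted p of 0.00172. Leaving out 1 library at a time gave log2 fold changes from -2.15 to -1.60, each called.

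Ets1 (chr9:32636241-32757820), a factor known from lymphocytes and from endothelium, was at 230.5, 121 and 119 CPM in MA9+EV and at 116, 55.0 and 52.1 CPM in MA9+SETDB1. The arms did not overlap, but replicate 1 of MA9+SETDB1 came close to replicates 2 and 3 of MA9+EV. Within an arm the highest library was 1.93 times the lowest in MA9+EV and 2.22 times in MA9+SETDB1. The log2 fold change was -1.08 ± 0.40 (SE), with a 95% interval from -2.02 to -0.13, and at an adjusted p of 0.0563 it did not pass. With the replicate number as a block it was -1.11 ± 0.08 (SE) and passed at an adjusted p of 0.000566, in a fit that called 29.0% of all tested genes lower. With the close replicates 2 and 3 summed within each arm it was -1.06, with an adjusted p of 0.152. Without MA9+SETDB1 replicate 1 it was -1.54 with an adjusted p of 0.00961, and without MA9+EV replicate 1 it was -0.69 with an adjusted p of 0.17. DESeq2 gave an adjusted p of 0.0148, and limma-voom 0.0444.

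The gap between the annotated ends of Fli1 and Ets1 was 92.8 kb. A window reaching 500 kb to either side of the pair, chosen after values were seen, held 15 annotated genes that the count files list. Some of them had no counts in any library, and only Fli1 and Ets1 passed the filter on low counts. The ratio of Fli1 to Ets1 counts was 0.676, 1.15 and 1.15 in MA9+EV and 0.538, 0.588 and 0.616 in MA9+SETDB1. The mean log2 ratio was lower in MA9+SETDB1 by 0.73, and its 3 libraries lay below all 3 of MA9+EV. An exact two-sided permutation test gave p = 0.10, the smallest that 3 against 3 libraries allow. It was 0.10 after adjustment over the 3 gene pairs whose ratios were computed, all chosen after values were seen.

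ERG and ETS2 form the matching pair on chromosome 16. Erg (chr16:95359169-95586600) was near the limit of detection, at 50, 18 and 13 counts in MA9+EV and 3, 11 and 12 counts in MA9+SETDB1. The CPM values were 2.06, 0.746 and 0.654 in MA9+EV and 0.168, 0.669 and 0.623 in MA9+SETDB1, with 1 MA9+SETDB1 library above the lowest MA9+EV library. The log2 fold change was -1.25 ± 0.66 (SE), with a 95% interval from -2.81 to 0.31 and an adjusted p of 0.151. It was -0.53 without MA9+EV replicate 1 and -0.11 without both libraries numbered 1.

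Ets2 (chr16:95702407-95721049), which responds to RAS and MAP kinase signalling by phosphorylation of its protein, was at 30.7, 34.2 and 38.3 CPM in MA9+EV and at 10.8, 19.2 and 16.7 CPM in MA9+SETDB1. The arms did not overlap, and replicate 1 was the lowest library of each arm, opposite to Fli1 and Ets1. Ets2 fell from 34.4 ± 3.82 to 15.5 ± 4.32 CPM (mean ± SD, n = 3), a 2.21-fold change with a log2 value of -1.14 ± 0.23 (SE) and an adjusted p of 0.00524. The call held without any 1 library, with log2 fold changes from -1.32 to -0.93.

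The gap between Erg and Ets2 was 116 kb. In the window around this pair 5 of 11 genes passed the filter, and the 3 others went different ways. Psmg1, a proteasome assembly chaperone, fell from 49.2, 49.9 and 49.3 CPM to 26.5, 31.1 and 28.0 CPM (adjusted p of 0.00102). Brwd1 did not pass (adjusted p of 0.305). Hmgn1, a nucleosome-binding protein with many processed gene copies in the genome that can share its reads, rose from 3.67, 2.40 and 1.96 CPM to 59.1, 68.6 and 70.8 CPM (adjusted p of 2.16e-05).

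**Figure D2:**
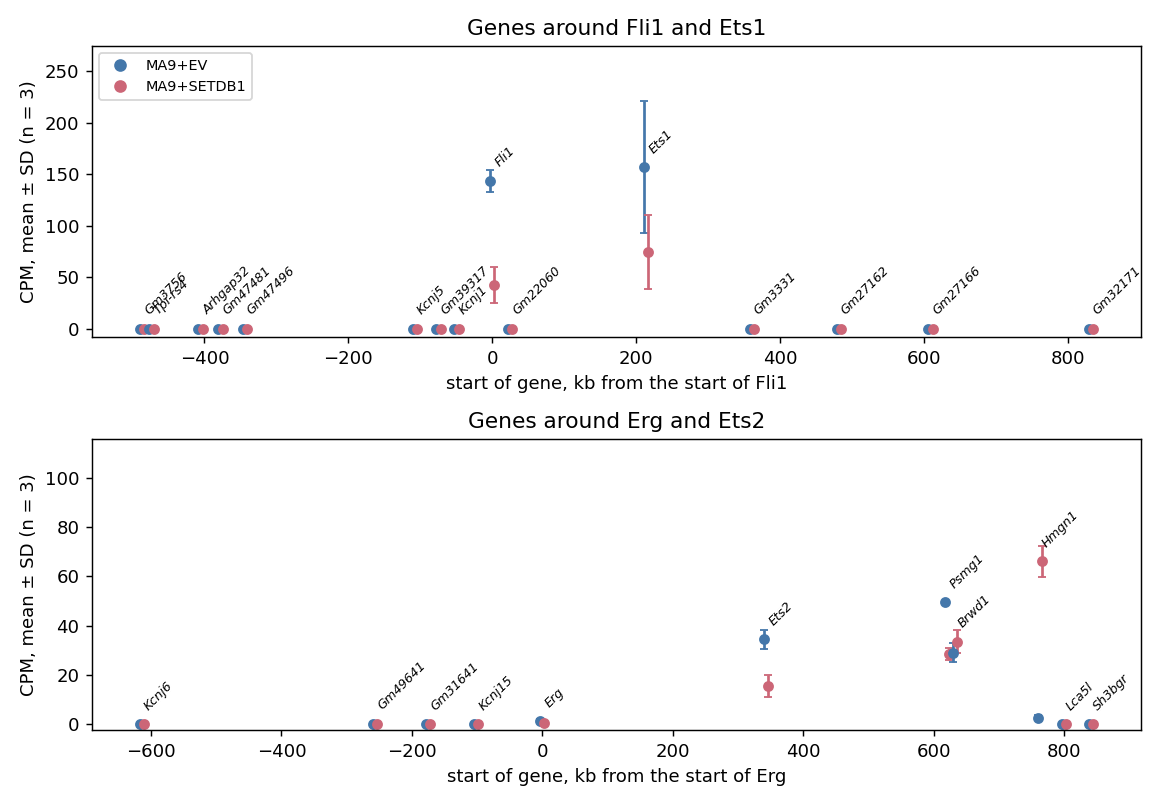
Mean CPM ± SD (n = 3) of the annotated genes that the count files list in the windows around Fli1 and Ets1 (top) and Erg and Ets2 (bottom). Each gene is placed by the distance of its start from the start of Fli1 or Erg in kb. Colours give the arm, and points are to be compared within a gene: Fli1, Ets1, Ets2 and Psmg1 are lower in MA9+SETDB1, Hmgn1 is higher, and the genes flanking Fli1 and Ets1 lie near 0.

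Gabpa (chr16:84834891-84863783) was at 135, 122 and 116 CPM in MA9+EV and at 80.7, 78.9 and 72.2 CPM in MA9+SETDB1. The libraries within each arm lay close together, and the arms were far from overlapping. Gabpa fell 1.61-fold, from 125 ± 9.83 to 77.3 ± 4.50 CPM (mean ± SD, n = 3), with a log2 fold change of -0.69 ± 0.10 (SE), a 95% interval from -0.93 to -0.44 and an adjusted p of 0.00148. Its annotated span overlaps that of Atp5j, a subunit of the mitochondrial ATP synthase (chr16:84827871-84835857). Atp5j went from 115 ± 13.7 to 91.9 ± 0.304 CPM (log2 fold change -0.33, adjusted p of 0.0431, and between 0.0577 and 0.147 without any 1 library other than MA9+EV replicate 1). Reads over the shared stretch could be assigned to either gene or to neither, since no label states how the counting treated strand.

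GABPA has no transactivation domain of its own and works with GABPB1 or GABPB2, which carry one. Gabpb1, chosen after its values were seen, rose from 49.8, 62.9 and 61.4 CPM to 72.2, 132 and 129 CPM (log2 fold change 0.93 ± 0.24 (SE), adjusted p of 0.0153), opposite in direction to Gabpa. This call was lost without MA9+EV replicate 1 (0.0518) or MA9+SETDB1 replicate 2 (0.0528) or 3 (0.0528). Gabpb2 was at 207, 157 and 150 CPM and at 177, 92.7 and 88.5 CPM, with overlapping arms (adjusted p of 0.175). The count ratio of Gabpa to Gabpb1 was 2.72, 1.94 and 1.89 in MA9+EV and 1.12, 0.600 and 0.560 in MA9+SETDB1. The ratio was lower in all 3 MA9+SETDB1 libraries, by 1.58 on the log2 scale (exact two-sided permutation p = 0.10, the smallest possible, and 0.10 after adjustment over 3 pairs). The pair was chosen after its values were seen, with the arms of both genes already apart in opposite directions. The p-value therefore adds no support of its own.

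Of the 3 factors that fell, Ets2 and Gabpa had a promoter entry in the RefSeq table for GRCm38.p6, so the 250 bases before the start given in that table are shown for these, 5′ to 3′ on the gene's strand. For Gabpa that start lies inside the annotated gene span, so most of its window does too. In all 7 of the 10 factors matched, with 10 such windows. Capitals mark matches, on either strand, to the ETS sequences CCGGAAG (as bound by GABP) and GAGGAAG (as bound by PU.1) or to the GATA sequence AGATAA.
Gabpa, chr16:84834874-84835123, plus strand: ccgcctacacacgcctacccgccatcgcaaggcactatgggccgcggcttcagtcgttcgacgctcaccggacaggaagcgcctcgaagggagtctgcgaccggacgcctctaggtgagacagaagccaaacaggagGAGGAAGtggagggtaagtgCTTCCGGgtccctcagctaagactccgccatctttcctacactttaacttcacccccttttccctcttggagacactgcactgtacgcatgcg
Ets2, chr16:95702157-95702406, plus strand: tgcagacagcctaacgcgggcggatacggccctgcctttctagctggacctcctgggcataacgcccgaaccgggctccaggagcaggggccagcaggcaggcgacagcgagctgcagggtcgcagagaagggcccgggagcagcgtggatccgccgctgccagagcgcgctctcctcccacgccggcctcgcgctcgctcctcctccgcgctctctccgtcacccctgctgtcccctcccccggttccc
The Gabpa window held 1 match to CCGGAAG, on the minus strand with its left edge 93 bases before the table's start, and 1 match to GAGGAAG, on the plus strand 113 bases before it. These did not overlap each other. Both lie inside the annotated span of Gabpa, and the whole window lies within that of Atp5j. The Ets2 window held none of the 3 sequences. Of the other 8 windows, 1 of the 3 Erg windows (chr16:95459349-95459598) held 1 match to AGATAA. Over all 32851 windows in the table CCGGAAG was present in 6.91%, GAGGAAG in 10.6% and AGATAA in 9.99%. A match is a run of letters, not evidence of binding.

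Etv6 (chr6:134035700-134270158), a transcriptional repressor required for blood stem cells in bone marrow, was at 199, 171 and 165 CPM in MA9+EV and at 154, 156 and 148 CPM in MA9+SETDB1. The arms did not overlap, but the distance between them was small beside the spread within MA9+EV. The log2 fold change was -0.22 ± 0.11 (SE), with a 95% interval from -0.48 to 0.03 and an adjusted p of 0.12. It was called lower with upper-quartile factors (adjusted p of 0.0486), with library totals alone (adjusted p of 0.0134) and without both libraries numbered 1 (adjusted p of 0.0277). It was not called with the close replicates 2 and 3 summed within each arm (adjusted p of 0.331).

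Elf1 (chr14:79481174-79582491), an activator in blood cells, was at 172, 170 and 172 CPM in MA9+EV and at 176, 153 and 140 CPM in MA9+SETDB1. Replicate 1 of MA9+SETDB1 lay above every MA9+EV library and the others below. The log2 fold change was -0.13 ± 0.11 (SE), with a 95% interval from -0.40 to 0.13 and an adjusted p of 0.348. Without both libraries numbered 1 it was -0.21 with an adjusted p of 0.000968, in a fit on the close replicates 2 and 3. With these summed within each arm it was -0.10, with an adjusted p of 0.735. Elf1 overlaps Wbp4, which did not pass (adjusted p of 0.5).

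The profiles over the 6 libraries were compared with those of 8803 genes at a mean of 10 CPM or more, by the mean absolute difference of centred log2 values. The calls come from the same libraries, so shared directions, calls and high replicates follow from how these genes were picked. For Spi1 the most alike were Cdc37 (0.0220), Pank4 (0.0249) and Sec24c (0.0283), none of which passed the test. Dirc2 (0.0370), Cep128 (0.0643) and Foxp1 (0.0859) were closest to Fli1, and all 3 fell, Dirc2 from 60.4 ± 3.44 to 17 ± 6.16 CPM (mean ± SD, n = 3). Notch1 (0.0303), Lyst (0.0584) and Lysmd3 (0.0642) were closest to Ets1 and shared its high replicate 1 in both arms. Notch1 was at 178, 93.7 and 93.7 CPM and at 88.2, 45.1 and 39.2 CPM. Like Ets1, Notch1 (adjusted p of 0.0511) and Lysmd3 (adjusted p of 0.0545) did not pass, and Lyst passed at 0.0468 but not without MA9+EV replicate 1 (0.134), MA9+EV replicate 2 (0.0572), MA9+SETDB1 replicate 2 (0.136) or MA9+SETDB1 replicate 3 (0.138).

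Among the 17 other ETS family genes 9 were tested, of which 6 rose and 2 fell, 66.7% and 22.2% of the tested, beside 27.4% and 26.2% of all tested genes. The rises included both close relatives that repress transcription, Erf and Etv3, and 2 of the 3 genes of the Etv1, Etv4 and Etv5 group, which act downstream of receptor tyrosine kinases. Erf rose from 4.00, 7.38 and 6.94 CPM to 20.1, 18.3 and 15.6 CPM (log2 fold change 1.56 ± 0.27 (SE), adjusted p of 0.00287). Etv3 rose from 24.1, 22.9 and 20.3 CPM to 48.0, 51.8 and 50.2 CPM (log2 fold change 1.16 ± 0.12 (SE), adjusted p of 0.000257). In both genes the arms were clearly apart, and the libraries of MA9+SETDB1 lay close together.

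Etv4 rose from 5.07, 9.61 and 9.31 CPM to 19.3, 21.6 and 20.6 CPM (log2 fold change 1.36, adjusted p of 0.00472). Etv5 rose from 5.28, 10.2 and 10.1 CPM to 23.5, 18.5 and 16.9 CPM (log2 fold change 1.21, adjusted p of 0.0119). In both, every MA9+SETDB1 library was above every MA9+EV library. Etv1 went the other way, with 4, 8 and 6 counts in MA9+EV and none in MA9+SETDB1, at least 4.71-fold lower against the floor of 3 counts over the arm, and it was not tested.

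The ternary complex factors Elk1, Elk3 and Elk4 bind with serum response factor. Elk4 rose from 29.6 ± 2.3 to 50.4 ± 11 CPM (mean ± SD, n = 3, adjusted p of 0.00874), a call lost with library totals and no scaling factors (0.0569). Elk1 did not pass (adjusted p of 0.171). Elk3 was at 23.8, 44.0 and 43.6 CPM in MA9+EV and 12.8, 23.9 and 19 CPM in MA9+SETDB1, so that the arms just overlapped. Its fall (log2 fold change -1.0, adjusted p of 0.0323) was not called without MA9+EV replicate 2 (0.0989), MA9+EV replicate 3 (0.0975), MA9+SETDB1 replicate 1 (0.0623) or MA9+SETDB1 replicate 3 (0.0836).

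In the ELF group Elf4 rose from 159 ± 35.3 to 226 ± 18.6 CPM (mean ± SD, n = 3, log2 fold change 0.51, adjusted p of 0.04), and Elf2 fell from 76.0 ± 3.44 to 51.6 ± 10.1 CPM (log2 fold change -0.56, adjusted p of 0.0182). Both calls were fragile. Without a single library the adjusted p for Elf4 was 0.137 (MA9+EV replicate 2), 0.136 (MA9+EV replicate 3), 0.0838, 0.0917 and 0.0647 (MA9+SETDB1 replicates 1, 2 and 3). For Elf2 it was 0.0502 without MA9+EV replicate 3, and 0.0722 and 0.0681 without MA9+SETDB1 replicates 2 and 3. The number of other ETS genes called lower was accordingly 1 without MA9+EV replicate 2, MA9+SETDB1 replicate 1 or MA9+SETDB1 replicate 2, and 0 without replicate 3 of either arm.

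The remaining ETS genes, most of them known from epithelia or single tissues, were not tested. Elf3 had no counts in MA9+EV and 6, 5 and 14 counts in MA9+SETDB1, at least 10.6-fold higher against the floor. Ehf had no counts in MA9+EV and 6, 0 and 1 counts in MA9+SETDB1, and Elf5 had 1 count in each MA9+EV library and none in MA9+SETDB1. Etv2, Etv3l, Fev and Spdef had no counts in any library. Over the whole family of 27 genes 17 were tested, with 6 higher, 5 lower and 6 not called, and a median log2 fold change of -0.13. The calls were 35.3% higher and 29.4% lower, beside 27.4% and 26.2% of all tested genes.

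**Figure D3:**
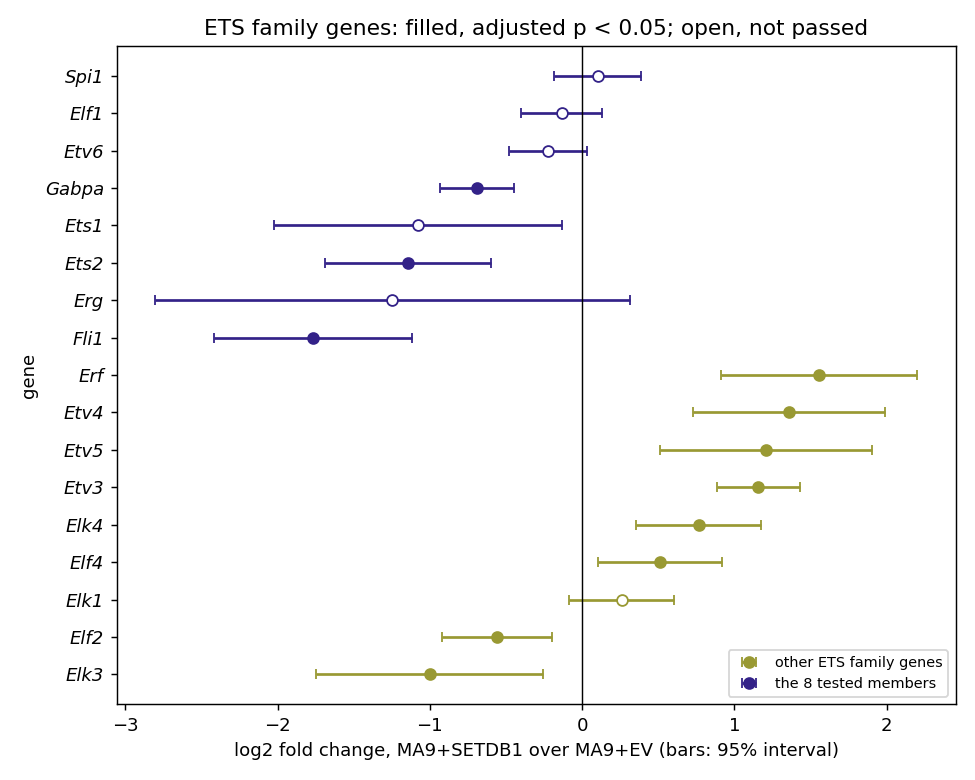
Log2 fold change (MA9+SETDB1 over MA9+EV, horizontal axis) of the 17 tested ETS family genes, with 95% intervals from edgeR. Filled points passed at an adjusted p below 0.05, and colours separate the 8 tested factors of the set, of which 3 lie lower, from the 9 other family members, of which 6 lie higher and 2 lower.

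ETS proteins work with partner factors, and the list of 15 partners held 14 tested genes, of which 7 rose and 3 fell, 50% and 21.4% beside 27.4% and 26.2% of all tested genes. Gata1, Gata2 and Tal1 rose from very low levels. Gata1, the erythroid, mast cell and megakaryocyte factor that opposes PU.1, went from 5, 4 and 5 counts to 3959, 3956 and 4858 counts (log2 fold change 10.1 ± 0.17 (SE), adjusted p of 5.49e-07). Gata2 rose from 0.371, 1.08 and 1.41 CPM to 1139, 1451 and 1379 CPM (adjusted p of 9.47e-06). Tal1 rose from 1, 1 and 3 counts to 4217, 5115 and 5852 counts (adjusted p of 1.66e-06).

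The fitted log2 fold changes of Gata2 and Tal1 were 10.46 and 11.80, while Spi1 differed by less than its replicate spread. The count ratio of Spi1 to Gata1 was 1081, 1089 and 720.4 in MA9+EV and 0.893, 0.883 and 0.864 in MA9+SETDB1. It was lower in all 3 MA9+SETDB1 libraries (exact two-sided permutation p = 0.10, the smallest possible, and 0.10 after adjustment over 3 pairs). The pair was chosen after its values were seen, and the rise of Gata1 had already set the arms apart. The p-value therefore adds no support of its own. The erythroid and mast cell markers given above rose in the same libraries.

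Runx1, which binds beside ETS1 and PU.1, rose from 79.4, 55.1 and 58.7 CPM to 468, 503 and 466 CPM (log2 fold change 2.89 ± 0.17 (SE), adjusted p of 2.68e-05). Irf8, which PU.1 recruits to composite sites in monocytes, dendritic cells and B cells, fell from 188, 370 and 267 counts to 0, 1 and 0 counts (adjusted p of 8.98e-05). The normalized ratio was 648, with an exact 95% counting interval from 116 to 25634. Irf4, the other PU.1-recruited factor of that family, had 33 counts over the MA9+EV libraries against 16 over the MA9+SETDB1 libraries and was not tested. Further partners are named after their values were seen. Lmo2, the bridge between TAL1 and GATA proteins, fell from 232, 165 and 164 CPM to 91.8, 23.4 and 23.7 CPM (adjusted p of 0.0204), a call lost without MA9+EV replicate 1 (0.0599) or MA9+SETDB1 replicate 2 (0.0549) or 3 (0.057). Myb fell from 669 ± 68.7 to 297 ± 85.2 CPM (mean ± SD, n = 3). Cebpa and Cebpb rose 1.66-fold and 1.67-fold, and Lyl1, Cbfb, Jun and Gabpb2 did not pass.

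Genes known as targets of PU.1 in myeloid cells went in both directions: of 17 tested genes 6 rose, 6 fell and 5 did not pass (35.3% in each direction, beside 27.4% and 26.2% of all tested genes), with a median log2 fold change of -0.58. The falls were large for genes of granulocytes and monocytes. Lyz2, lysozyme, fell from 224, 236 and 207 CPM to 2.74, 0.912 and 1.09 CPM (adjusted p of 2.23e-05). Csf3r, the G-CSF receptor, fell from 84.5, 36.6 and 37.8 CPM to 0.168, 0.304 and 0.0519 CPM (adjusted p of 7.76e-05). Irf8 and Cd14 fell too, and Mrc1, with 104 counts in MA9+EV and none in MA9+SETDB1, was at least 27.2-fold lower. Csf2ra, the GM-CSF receptor alpha chain, fell from 152 ± 26.9 to 102 ± 15.5 CPM (mean ± SD, n = 3, adjusted p of 0.027). That call was lost with the replicate block (0.0536) and without any 1 library other than MA9+EV replicate 2, with adjusted p-values from 0.0507 to 0.0635.

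Other genes on the same list rose. Itgam, the CD11b integrin chain, rose from 101, 97.0 and 96.9 CPM to 334, 460 and 418 CPM (log2 fold change 2.04, adjusted p of 5.88e-05). Btk, a kinase of B cell and Fc receptor signalling, rose from 202, 190 and 192 CPM to 529, 465 and 465 CPM (log2 fold change 1.32, adjusted p of 0.000111). Csf1r, the M-CSF receptor, rose from 4.95, 4.35 and 3.27 CPM to 24.1, 18.5 and 18.1 CPM (adjusted p of 0.000295). In all 3 genes every MA9+SETDB1 library was above every MA9+EV library. Cd68 and Fcer1g rose as well, and Cybb, Ncf1, Fes, Tlr4 and Fcgr1 did not pass.

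Of the Spi-C and heme macrophage genes 5 of 11 were tested, and 3 (60%) fell, beside 26.2% of all tested genes. Bach1, the heme-sensing repressor that controls Spic and Hmox1, fell from 82.6, 109 and 103 CPM to 26.4, 26.1 and 22.9 CPM (log2 fold change -1.97 ± 0.14 (SE), adjusted p of 6.55e-05). Vcam1, an adhesion molecule of red pulp macrophages, fell from 36.9 ± 18.2 to 0.747 ± 0.515 CPM (mean ± SD, n = 3, adjusted p of 0.000281). Slc11a1 fell from 1.1 ± 0.495 to 0.150 ± 0.131 CPM (adjusted p of 0.0174), a call lost without MA9+EV replicate 2 (0.0688). Slc40a1 (adjusted p of 0.179) and Hmox1 (adjusted p of 0.495) did not pass. Hmox1, heme oxygenase, was at 11, 120.5 and 113 CPM in MA9+EV and at 105, 138 and 136 CPM in MA9+SETDB1, so that MA9+EV replicate 1 alone was low.

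Genes known as FLI1 or ERG targets in megakaryocytes and endothelium numbered 12, of which 7 were tested, and 4 rose while 1 fell (57.1% and 14.3%, beside 27.4% and 26.2% of all tested genes). Itga2b, CD41, went from 8, 6 and 1 counts to 11516, 8507 and 10251 counts (log2 fold change 11.3 ± 0.37 (SE), adjusted p of 2.87e-06). Vwf rose from 1.16 ± 0.0440 to 4.04 ± 0.464 CPM (mean ± SD, n = 3, adjusted p of 0.00117). The platelet glycoprotein genes Gp1ba and Gp6 also rose at low levels: Gp1ba had 1 count in MA9+EV and 219, 35 and 45 counts in MA9+SETDB1, and Gp6 had none and 22, 27 and 13 counts. Pf4, a platelet chemokine, fell from 1.14 ± 0.226 to 0.245 ± 0.0517 CPM (adjusted p of 0.00226). Tek, Cdh5 and Kdr had no counts in any library, and Gp9 and Eng did not pass.

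Of 8 mitochondrial genes known as GABP targets or coregulators 3 fell, none rose and 5 did not pass. Ppargc1b, a coactivator of mitochondrial genes, fell from 5.36, 9.20 and 9.86 CPM to 0.615, 0.547 and 0.156 CPM (log2 fold change -4.21, adjusted p of 0.000647). Tfb2m, a mitochondrial transcription factor, fell from 7.82 ± 0.773 to 3.99 ± 0.605 CPM (mean ± SD, n = 3, adjusted p of 0.00943). That call was lost with replicates 2 and 3 summed within each arm (0.144). Tfam, which packages mitochondrial DNA, fell from 64.3, 69.4 and 67.6 CPM to 54.1, 55.9 and 55.1 CPM (log2 fold change -0.29, adjusted p of 0.0312). The arms of Tfam did not overlap, but the call was lost without MA9+EV replicate 2 (0.111) or 3 (0.0999) and without MA9+SETDB1 replicate 2 (0.101) or 3 (0.102). It was also lost with no filter on low counts (0.111) and with replicates 2 and 3 summed (0.289). Cox4i1 (adjusted p of 0.203) and Cox5b (adjusted p of 0.247), subunits of cytochrome oxidase, did not pass, nor did Tfb1m, Polrmt and Nrf1. The 37.5% of this list called lower stands beside 26.2% of all tested genes.

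**Figure D4:**
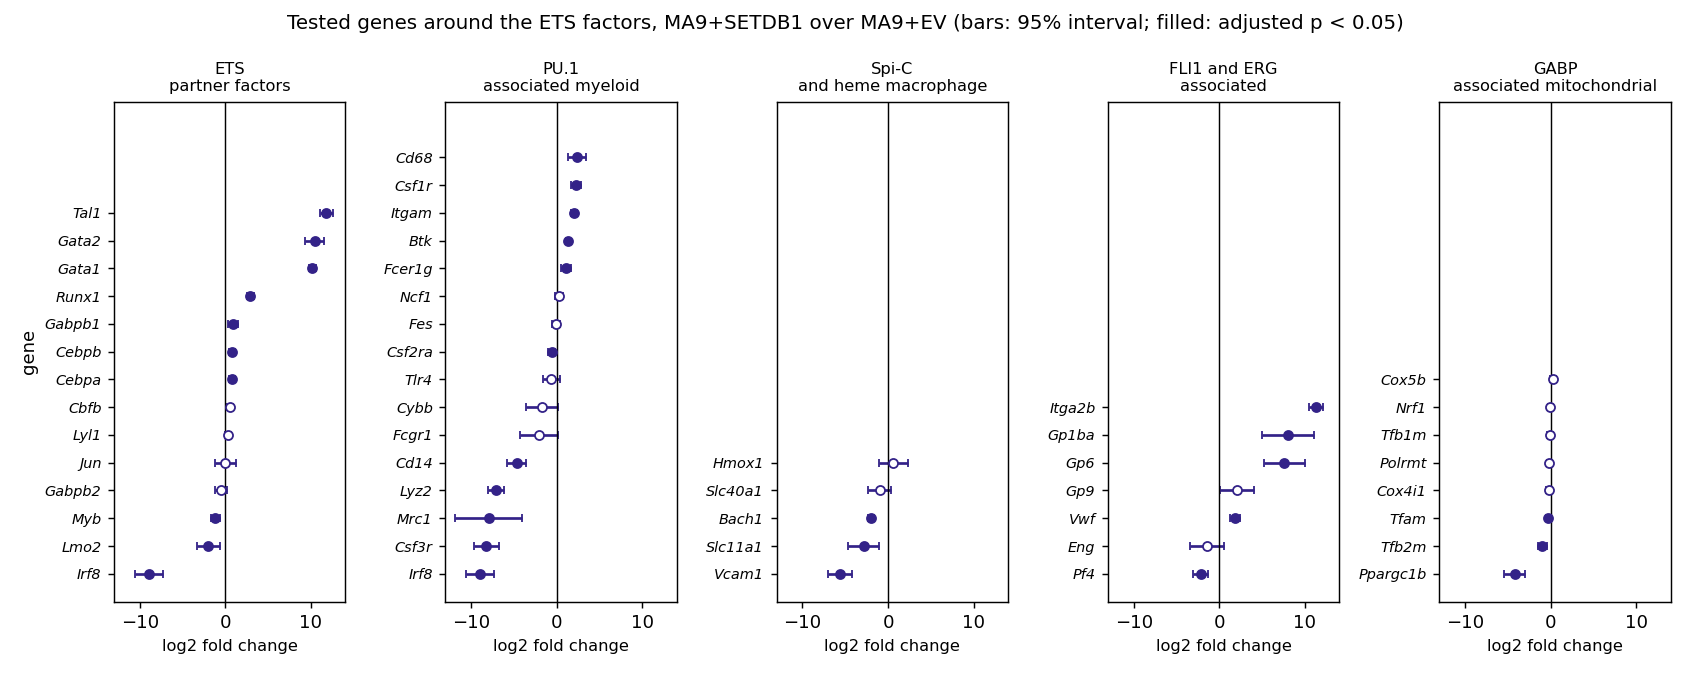
Log2 fold change (MA9+SETDB1 over MA9+EV, horizontal axes) of tested genes in the lists of ETS partners, PU.1-associated, Spi-C and heme, FLI1 and ERG-associated and GABP-associated genes, with 95% intervals from edgeR. Filled points passed at an adjusted p below 0.05; the PU.1-associated panel has 6 filled points on the lower side and 5 on the higher side, 1 gene of that list not being shown, and the GABP-associated panel has 3, all on the lower side.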

How the data were processed

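The 6 RNA-seq libraries were used, and the 20 chromatin samples of the series were not analysed here. The authors deposited raw counts of reads per gene, as whole numbers without normalization. Libraries were strand-specific and poly-A selected, per the labels' protocols, and STAR 2.6.0c, HTSeq 0.11.0 and the build GRCm38 are among those named in the submitters' processing notes. How the counting treated strand is not stated there, so overlapping genes are uncertain. Summary lines, 24.6% to 26.3% of the entries per library, were left out. By versioned identifier 52480 of 54146 genes matched a symbol, by stem a further 1599, and 67 did not match.

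Genes were filtered with filterByExpr and TMM-scaled, and edgeR 4.0.16 (quasi-likelihood test, R 4.3.3) was fitted, with Benjamini-Hochberg adjustment over all 12986 tested genes and a threshold of 0.05. DESeq2 1.42.0, limma-voom (limma 3.58.1), other scaling factors, no filter, a replicate block, replicates 2 and 3 summed and leaving out libraries were the alternatives. CPM uses TMM-scaled library sizes. A floor of 3 counts was 0.124 to 0.182 CPM in a library. The exact counting intervals of count ratios cover counting error only, unlike the edgeR intervals of log2 fold changes. A fold given as "at least" sets the arm without counts to its floor and takes the other arm as counted. It covers neither the counting error of that other arm nor the spread of its libraries. Each edgeR p-value weighs the difference between arms against the spread of these 6 libraries within their arms, which may be partly technical.

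Both arms number their libraries 1 to 3. Deviations from the arm means correlated at 0.271, 0.225 and 0.205 for the same numbers, but also at 0.24 and 0.204 between numbers 2 and 3, so the pairing comes from the data for replicate 1 and from the titles otherwise.

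The ETS factors and the gene lists were chosen with earlier results of these data known. Named genes were Setdb1, the 10 factors, other ETS genes with a count, up to 5 tested genes per list with the smallest p, marker genes at 0 and the 3 genes most alike in profile to Spi1, Fli1 and Ets1, computed with a pseudocount of 0.5 CPM. Other genes, gene pairs, windows and motifs were chosen after values were seen. Gene coordinates come from RefSeq for GRCm38.p6. Transcript lengths and proteins were not used here. The counts for lists include 3 genes whose own results are not reported here.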

Additional observations from a re-analysis of the deposited data

How the results depend on the processing

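Fli1, Ets2 and Gabpa were called lower in all 15 alternatives. The number of ETS factors called lower was 3 as reported, 4 with DESeq2, 4 with no filter, 5 with upper-quartile factors and 5 with library totals and no scaling factors. It was 6 without both libraries numbered 1, where 1 was called higher. Ets1, which just missed the threshold as reported (0.0563), was among those called lower in each of these alternatives and with limma-voom (0.0444). It was not called with RLE scaling factors (0.0563) or with replicates 2 and 3 summed (0.152). Leaving out 1 library at a time gave 3 to 4 lower and 0 higher. Over all genes leaving out 1 library gave 2992 to 4231 higher and 2727 to 4063 lower calls, beside 3554 and 3397. Summing replicates 2 and 3 within each arm gave 2292 higher and 1928 lower and ended the calls of 15 named genes, among them Etv5 (0.0577) and Elk4 (0.0606). Without both libraries numbered 1 there were 5314 higher and 5285 lower. With the replicate number as a block there were 3791 higher and 3761 lower calls and 4 ETS factors called lower; among the genes named it added calls for Ets1, Notch1, Lysmd3, Slc40a1, Bst2 and Cox6a2, lost that for Csf2ra and changed no other.

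Directions that turned belonged to genes that were not called. Pank4 was -0.0140 with upper-quartile factors, -0.18 with library totals, -0.0324 with replicates 2 and 3 summed, and from -0.0198 (without MA9+EV replicate 3; -0.0185 without MA9+EV replicate 2) to 0.18 when 1 library was left out. With library totals Spi1 was -0.13, Cox5b -0.0164, Cdc37 -0.15 and Sec24c -0.12 on the log2 scale, and Irf7 was -0.0438 without both libraries numbered 1. The cause was not tested. Spib and Spic had too few counts to be tested.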
